A study of Mus musculus with 15 samples.

Results

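The 8 genes Kcna1, Kcna2, Kcna6, Kcnab1, Kcnc1, Kcnd3, Kcng4 and Kcnip1, which encode voltage-gated potassium channels and their subunits, were followed by symbol among the 24421 genes of the count tables. They were chosen with earlier results of these data known and taken by their symbols, and all 8 were found. Transcripts were counted by RNA sequencing of whole cerebella from FVB mice in 15 libraries, 5 of each of 3 genotypes. The first genotype is wild type. The second, ATXN1[82Q], carries a human ATXN1 transgene with 82 glutamines in its tract, the kind of expansion that causes spinocerebellar ataxia type 1. The third, ATXN1[82Q]V591A;S602D, carries the same expanded transgene with a pair of amino acid substitutions known to weaken the binding of ATXN1 to the transcriptional repressor CIC, and is called the substituted transgene here. The Pcp2 promoter drives both transgenes in Purkinje cells, whose axons are the only output of the cerebellar cortex, so these mice model expression of the expanded protein in that cell type. No treatment is recorded, and neither age nor sex is given in the sources used here. Because the labels do not state that every library comes from its own animal, p-values measure the spread between libraries.

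Voltage-gated potassium channels open when the membrane depolarises and let potassium leave the cell, which ends an action potential and sets how fast a neuron can fire again. A channel is a ring of alpha subunits, and cytoplasmic or membrane partners change how it traffics and inactivates. Purkinje cells fire without synaptic input at high and regular rates, and fast potassium channels are known to be needed for that firing; mutations of KCNA1 and KCND3 cause inherited ataxias in humans.

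Of the 8 genes, 5 were lower in ATXN1[82Q] cerebella than in wild type. They were Kcnab1, which encodes a beta subunit of Kv1 channels (2.4-fold), Kcnip1, which encodes the Kv4 partner KChIP1 (2.02-fold), Kcng4, which encodes a silent modulatory subunit (1.81-fold), Kcna6, a Kv1 alpha subunit gene (1.48-fold), and Kcnc1, a Kv3 alpha subunit gene (1.37-fold). The 3 others, Kcna1, Kcna2 and Kcnd3, encode pore-forming subunits and did not pass the test. A gene is called here when edgeR's quasi-likelihood test gives an adjusted p under 0.05 (Benjamini-Hochberg, 15843 genes tested). In this comparison 31.5% of all tested genes were called, 14.9% lower and 16.6% higher, and the median log2 fold change was -0.51 over the 8 genes and 0.01 over all genes. In all 5 called genes the highest ATXN1[82Q] library was below the lowest wild-type library, a separation in that direction that 9.79% of all tested genes showed.

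With the substituted transgene, 4 of the 8 genes were lower than in wild type: Kcna6, Kcnab1 and Kcng4, each by 1.34-fold or 1.35-fold, and Kcnip1 by 1.2-fold. Kcnc1 did not pass. Among all tested genes 1.41% were called in this comparison, 1.2% lower and 0.208% higher, and the median log2 fold change was -0.16 over the 8 genes and 0.01 over all genes. Kcna6, Kcnab1 and Kcng4 did not overlap with wild type, as was true in that direction of 2.03% of all tested genes, while Kcnip1 overlapped. The call of Kcnip1 did not hold under 9 of 26 alternative settings (adjusted p from 0.0516 to 0.0824), among them the omission of wild-type replicate 2, 3 or 4 or of replicate 1, 2, 4 or 5 of the substituted transgene.

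Set directly against the substituted transgene, ATXN1[82Q] was lower in 4 of the 8 genes, Kcnab1 (1.79-fold), Kcnip1 (1.68-fold), Kcnc1 (1.41-fold) and Kcng4 (1.34-fold). All 4 were separated without overlap. Of all tested genes 28.1% were called here, 14.6% lower and 13.5% higher, and 9.61% were separated as lower; the median log2 fold change was -0.28 over the 8 genes. None of the 8 was called higher in any of the 3 comparisons by edgeR with TMM scaling or by DESeq2, and none was higher in edgeR at an unadjusted p under 0.05. The comparisons share libraries, so their values are given side by side for each gene below.

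**Figure D1:**
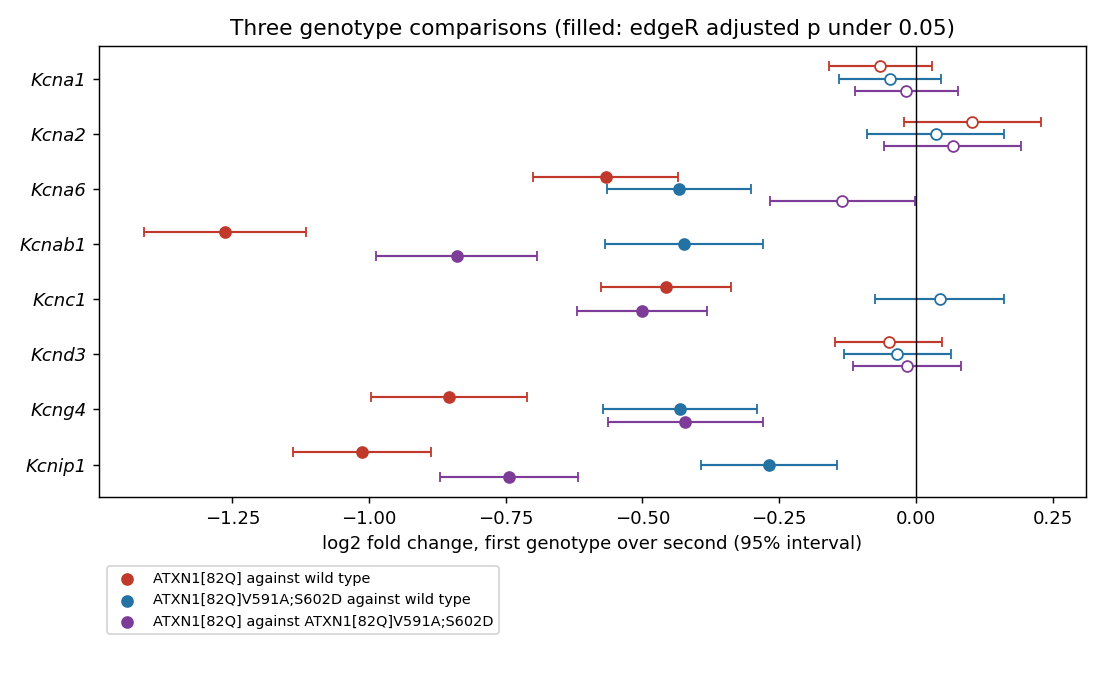
Log2 fold changes of the 8 genes with 95% intervals in the 3 comparisons, where filled circles passed an edgeR adjusted p under 0.05 and open circles did not. Kcnab1 lies furthest to the left at -1.26 in ATXN1[82Q] against wild type, and the intervals of Kcna1, Kcna2 and Kcnd3 include 0 in every comparison.

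The coding sequences of 5 of the alpha subunits and of the partners Kcnab1 and Kcnip1 were searched for a short stretch of the pore. Each of these 5 had a single in-frame match to the selectivity filter, the stretch of the pore that lets potassium pass and holds back sodium, and neither Kcnab1 nor Kcnip1 had any. In the 45 coding bases printed for each gene, read 5′ to 3′ from GENCODE M21 transcripts, capitals mark the 5 codons of the filter (threonine, valine or leucine, glycine, tyrosine, glycine).
Kcna1: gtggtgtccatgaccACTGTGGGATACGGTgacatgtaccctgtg
Kcna2: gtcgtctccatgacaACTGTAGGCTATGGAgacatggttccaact
Kcna6: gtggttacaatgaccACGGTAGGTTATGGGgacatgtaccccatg
Kcnc1: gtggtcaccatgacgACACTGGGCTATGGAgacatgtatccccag
Kcng4: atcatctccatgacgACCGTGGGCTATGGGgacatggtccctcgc
The filter begins at codon 372 of Kcna1, 374 of Kcna2, 422 of Kcna6, 400 of Kcnc1 and 416 of Kcng4. Over the stretch, 77.8% of the bases of Kcna6, 73.3% of those of Kcnc1 and 68.9% of those of Kcna2 and Kcng4 were the same as in Kcna1. Because the stretch was chosen by its match to the filter codons, these shares do not measure how close the whole genes are. The silent subunit Kcng4 carries the filter codons like the subunits that form channels alone.

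Kcna6 and Kcng4 fell with the substituted transgene by the same log2 fold change of -0.43, and the 250 bases before their annotated transcript starts are printed for that reason (RefSeq, GRCm38.p6, minus strand, at chr6:126740675-126740924 and chr8:119635681-119635930). Capitals mark a match to a searched motif.
Kcna6: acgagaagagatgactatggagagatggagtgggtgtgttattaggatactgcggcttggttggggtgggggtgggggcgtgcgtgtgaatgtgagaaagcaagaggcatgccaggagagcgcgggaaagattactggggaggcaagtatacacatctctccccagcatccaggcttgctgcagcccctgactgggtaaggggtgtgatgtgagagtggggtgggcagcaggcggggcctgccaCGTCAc
Kcng4: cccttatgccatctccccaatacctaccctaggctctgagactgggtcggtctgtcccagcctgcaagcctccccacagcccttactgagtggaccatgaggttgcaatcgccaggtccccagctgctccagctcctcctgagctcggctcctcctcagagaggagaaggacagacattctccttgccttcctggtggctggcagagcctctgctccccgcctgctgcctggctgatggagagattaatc
On both strands of such windows 6 motifs were searched: the CIC octamers TGAATGAA and TGAATGGA, the ROR half-site AGGTCA, the GC box GGGCGG, the E-box CACGTG and the CRE half-site TGACG. They occur in 1.08%, 1.01%, 14%, 32.7%, 6.02% and 17.8% of 32851 windows of the same length. The Kcna6 window held a single match, to TGACG on the opposite strand 6 bases before the start, and the Kcng4 window held none. In the Kcnc1 window (chr7:46396218-46396467, plus strand) there were 3 matches to GGGCGG and 1 to TGACG. Windows were found for 7 of the 8 genes, 11 in all, and no window held either CIC octamer. These are matches of letters only.

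The libraries held 36467948 to 42818401 counts on genes, and the 8 genes drew from 1585 counts (Kcnip1) to 33126 (Kcnc1) in a library, so each was measured well above the filter of 10 counts. Levels are given as CPM, counts scaled to the size of the library with TMM factors. Ttr, a transcript that choroid plexus holds in abundance, was over 1000 CPM in 8 libraries (2 wild-type, 3 ATXN1[82Q], 3 substituted) and under 100 CPM in the other 7. Replicates 2 and 5 of ATXN1[82Q] stood apart in brainstem neuron markers, with a summed level of 69.6 and 86.3 CPM against 20.6 to 42.2 CPM in the other 13 libraries. None of the calls of Kcna6, Kcnab1, Kcnc1, Kcng4 or Kcnip1 in ATXN1[82Q] against wild type was lost without those 2 libraries, in libraries of low Ttr alone, or under any other alternative run. All lists of cerebellar cell markers were detected in every library, with no marker of Purkinje cells, granule cells, interneurons or glia at 0.

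**Figure D2:**
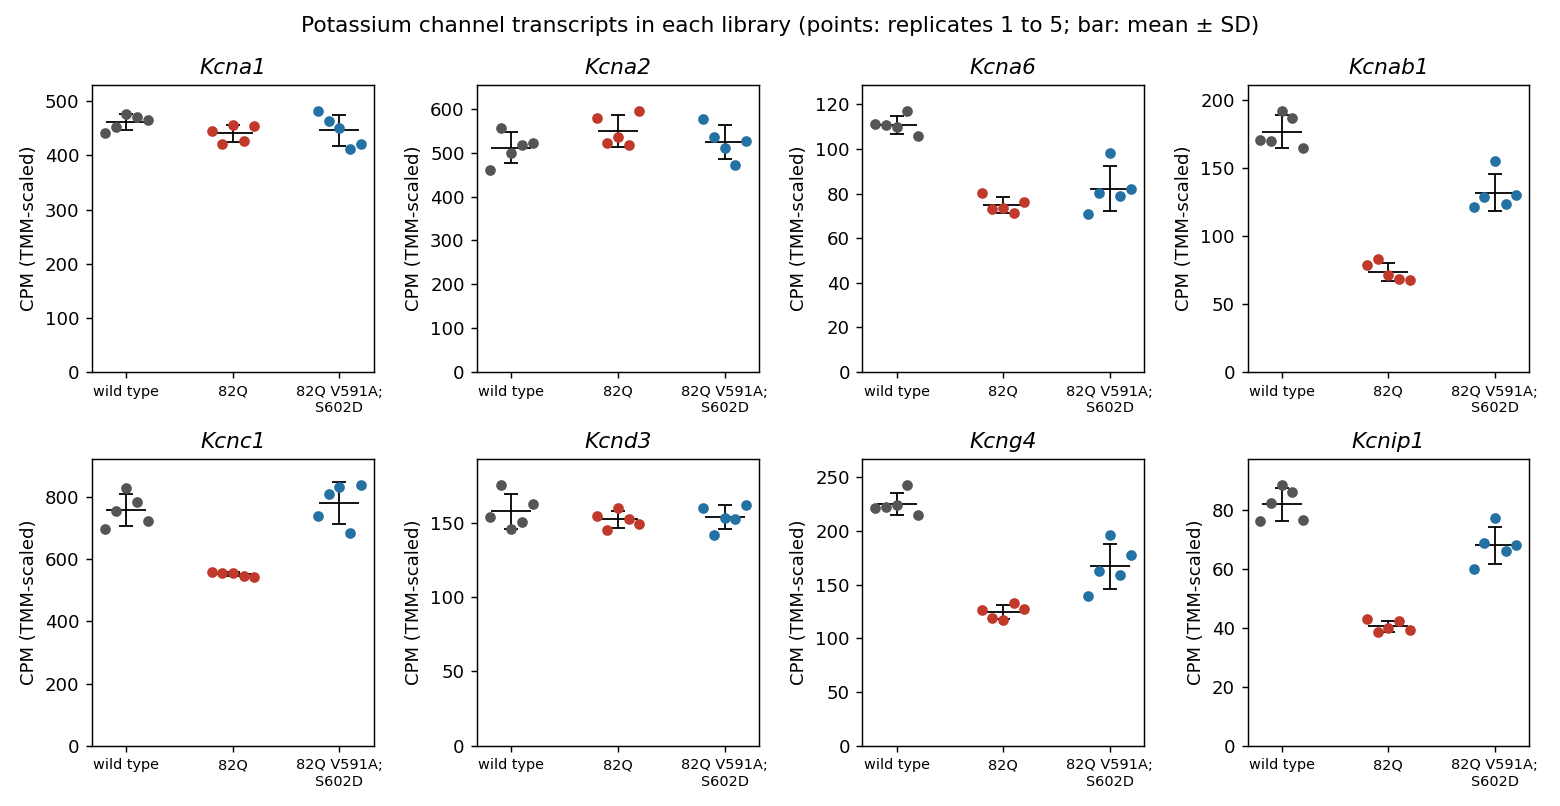
CPM of each of the 8 genes in the 15 libraries, with a point for each library (left to right, replicates 1 to 5) and a bar for the mean ± SD of 5 libraries. For Kcnab1, Kcnc1, Kcng4 and Kcnip1 the ATXN1[82Q] points lie below all points of both other genotypes, whereas for Kcna1, Kcna2 and Kcnd3 the 3 genotypes overlap.

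To compare genes, levels were divided by kilobases of annotated exon. Kcna1 was then highest in wild type at 96.5 ± 3.08 CPM per kb (SD, n = 5), followed by Kcnc1 at 80.1 ± 5.42, Kcng4 at 59.2 ± 2.78 and Kcna2 at 42.9 ± 2.93. These 4 did not overlap with their neighbours in the order. Kcnab1 (20.6 ± 1.38), Kcna6 (18.7 ± 0.681) and Kcnd3 (16.4 ± 1.23) formed a group in which each overlapped the next, and Kcnip1 was lowest at 13.2 ± 0.892. The silent subunit gene Kcng4 thus stood among the most abundant of the 8 transcripts per length of exon. Exon length weighs on this order, since the annotated exons of Kcna2 reach 11906 bp against 4780 bp for Kcna1. Divided by coding length the order changed, with Kcnc1 highest in wild type (390.7 to 463.8 CPM per kb) and Kcna6 lowest (66.6 to 73.7). Kcng4 (141.6 to 160.1) then overlapped Kcnab1 (136.9 to 159.6).

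Kcna1, Kcna2 and Kcna6 encode the Kv1 alpha subunits Kv1.1, Kv1.2 and Kv1.6, of which Kv1.1 and Kv1.2 are concentrated in axons and at the basket cell terminals around the Purkinje cell soma. Kcna1 (chromosome 6, 126640397 to 126646384, GRCm38, minus strand) stood at 441, 452, 477, 470.5 and 466 CPM in wild-type replicates 1 to 5. It was at 446, 421, 456, 427 and 454.5 CPM in ATXN1[82Q] and at 482, 465, 452, 412 and 421 CPM with the substituted transgene. The genotypes overlapped in every comparison. Kcna1 did not pass in ATXN1[82Q] against wild type (log2 fold change -0.07, 95% interval -0.16 to 0.03, edgeR adjusted p = 0.285), with the substituted transgene against wild type (-0.05, -0.14 to 0.05, 0.727) or between the transgenes (-0.02, -0.11 to 0.08, 0.801).

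Kcna2 (chromosome 3, 107101146 to 107115005, plus strand) was at 460.4, 555, 499.6, 518 and 523 CPM in wild type. The ATXN1[82Q] libraries gave 579, 521, 535, 516.5 and 595 CPM and the substituted libraries 576, 537, 511, 471 and 526 CPM. All 3 ranges overlapped. The log2 fold change of Kcna2 was 0.10 in ATXN1[82Q] against wild type (95% interval -0.02 to 0.23, edgeR adjusted p = 0.198), 0.04 with the substituted transgene (-0.09 to 0.16, 0.865) and 0.07 between the transgenes (-0.06 to 0.19, 0.423). It passed as higher in ATXN1[82Q] under 1 of 26 alternatives, scaling by library totals alone (log2 fold change 0.18, adjusted p = 0.0255).

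Kcna6 (chromosome 6, 126708329 to 126740674, minus strand) differed from these 2 genes. Wild-type libraries gave 111, 111, 109.7, 117 and 106 CPM, ATXN1[82Q] libraries 80.4, 73, 73.4, 71.2 and 76.3 CPM, and substituted libraries 70.8, 80.5, 98.4, 78.8 and 82.2 CPM. Every transgenic library lay below every wild-type library, and the transgenic groups overlapped, with the highest substituted value in replicate 3 and the lowest in replicate 1. The log2 fold change was -0.57 (SE 0.0628, edgeR adjusted p = 3.28e-06) in ATXN1[82Q] and -0.43 (SE 0.0626, adjusted p = 0.002) with the substituted transgene. Between the transgenes it was -0.13 (95% interval -0.27 to -0.00152, adjusted p = 0.12, unadjusted p = 0.0477), and it passed there only without replicate 1 of the substituted transgene (-0.18, adjusted p = 0.0275; 0.0275 to 0.928 over 26 alternatives). Over 39.6% of its exon bases Kcna6 overlaps the antisense gene Gm26673, which is not analysed here, and without strand their reads cannot be told apart, so its level is uncertain.

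The make-up of the Kv1 alpha transcripts restates these same CPM. A lower share of Kcna6 follows from its fall beside Kcna1 and Kcna2, and rests on its uncertain level. Of the summed CPM per kb of exon of the 3 genes, Kcna6 made up 11.8% ± 0.538 in wild type (SD, n = 5), 8.34% ± 0.262 in ATXN1[82Q] and 9.17% ± 1.24 in the substituted group. The share of Kcna1 was 61.1% ± 1.17, 61.1% ± 1.04 and 61.7% ± 0.927, and that of Kcna2 27.2% ± 1.33, 30.5% ± 0.919 and 29.1% ± 1.01. Kcna6 shares ran from 11.2% to 12.5% in wild type and from 8.09% to 8.7% in ATXN1[82Q], without overlap. Divided by coding length instead, Kcna2 in place of Kcna1 had the largest share (47.3% against 43.1% in wild type), while Kcna6 again had a lower share in ATXN1[82Q] (6.63%) than in wild type (9.69%). Of the 3 other Kv1 alpha genes tested, Kcna3 and Kcna4 stood at 3.44 and 3.64 CPM in wild type and were not called in ATXN1[82Q] (edgeR adjusted p = 0.927 and 0.386). Kcna5 was called higher at a very low level (0.187 ± 0.113 to 0.548 ± 0.275 CPM, SD, n = 5; log2 fold change 1.55, adjusted p = 0.016), a call lost in libraries of low Ttr alone (1.45, adjusted p = 0.0804) and without ATXN1[82Q] replicate 4 (1.24, adjusted p = 0.0568).

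Kcnab1 (chromosome 3, 65109384 to 65378223, plus strand) encodes Kvβ1, a cytoplasmic subunit that speeds the inactivation of Kv1 channels. It was at 171, 170.2, 192, 187 and 165 CPM in wild type, at 78.5, 83.1, 71.3, 68.3 and 67.4 CPM in ATXN1[82Q], and at 122, 128.5, 155, 124 and 130.4 CPM in the substituted libraries. The 3 genotypes formed 3 separate ranges, ATXN1[82Q] lowest and wild type highest, and replicate 3 of the substituted transgene lay closest to wild type. In edgeR the log2 fold change was -1.26 in ATXN1[82Q] against wild type (SE 0.07, adjusted p = 1.49e-09), -0.42 with the substituted transgene (SE 0.0685, adjusted p = 0.00305) and -0.84 between the transgenes (SE 0.0698, adjusted p = 5.89e-07). Relative to the summed Kv1 alpha transcripts per kb of exon, Kcnab1 was at 0.13 ± 0.00789 in wild type (SD, n = 5), 0.057 ± 0.00651 in ATXN1[82Q] and 0.102 ± 0.0109 in the substituted group.

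The other Kv1 beta genes went otherwise. Kcnab3 rose in ATXN1[82Q] from 106 ± 7.94 CPM (SD, n = 5) to 129 ± 6.88 CPM (log2 fold change 0.28, edgeR adjusted p = 0.000167) and was at 102 ± 1.74 CPM with the substituted transgene. Kcnab2 did not pass in ATXN1[82Q] (161 ± 7.28 against 152 ± 19.9 CPM, log2 fold change -0.08, 95% interval -0.23 to 0.06), but was called lower under 3 of 26 alternatives: without replicates 2 and 5 of ATXN1[82Q] (-0.23, adjusted p = 0.0034), in libraries of low Ttr alone (-0.22, adjusted p = 0.0229) and with the brainstem marker mean as a covariate (-0.19, adjusted p = 0.00457). Of 13 listed partners of Kv1 complexes, such as the LGI and ADAM proteins, 5 fell and 1 rose in ATXN1[82Q] against wild type. In that comparison 14.9% of all tested genes were called lower and 16.6% higher. Adam23, a receptor for LGI1, fell from 252 ± 17.9 to 142 ± 9.12 CPM (log2 fold change -0.83, adjusted p = 5.76e-08), and Dlg2, the scaffold PSD-93, fell from 422 ± 37.5 to 256 ± 22.5 CPM (-0.72, adjusted p = 4.96e-07). None of the 13 passed in edgeR over all 15 libraries with the substituted transgene, where 1 was lower and 1 higher at an unadjusted p under 0.05; 3 of 26 alternatives called Adam23 lower there, DESeq2 (log2 fold change -0.24, adjusted p = 0.015) and edgeR without replicate 3 of the substituted transgene (-0.28, adjusted p = 0.0218) or in libraries of low Ttr alone (-0.35, adjusted p = 0.0475).

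Kcnc1 (chromosome 7, 46396497 to 46438704, plus strand) encodes Kv3.1, a fast high-voltage channel of neurons that fire at high rates, known in the cerebellum from granule cells. Its wild-type libraries stood at 697, 753, 827, 785 and 723 CPM, its ATXN1[82Q] libraries at 557, 556.5, 555, 547 and 542 CPM, and its substituted libraries at 739, 808, 831, 684 and 839 CPM. The ATXN1[82Q] values were the most even of any gene and genotype here, with a coefficient of variation of 1.22%, and all lay below both other groups, which overlapped. Kcnc1 fell by 0.46 on the log2 scale in ATXN1[82Q] against wild type (SE 0.0564, edgeR adjusted p = 1.06e-05) and by 0.50 against the substituted transgene (SE 0.0564, adjusted p = 1.24e-05). With the substituted transgene the log2 fold change against wild type was 0.04 (95% interval -0.08 to 0.16, adjusted p = 0.82), so a fall of the size seen in ATXN1[82Q] lies outside the interval.

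The Kv3 genes Kcnc4 and Kcnc2 were called higher in ATXN1[82Q] against wild type by edgeR. Kcnc4 was at 49.9 ± 3.94 CPM in wild type and 61.2 ± 5.99 CPM in ATXN1[82Q] (SD, n = 5; log2 fold change 0.29, adjusted p = 0.00353), a call lost in libraries of low Ttr alone (0.21, adjusted p = 0.137). Kcnc2 was at 3.98 to 8.84 CPM in wild type and at 10.6, 17.4, 8.84, 9.91 and 23 CPM in ATXN1[82Q] replicates 1 to 5. It was highest in the libraries that were also highest in brainstem neuron markers. Its rise (log2 fold change 0.92, adjusted p = 0.0091) was not called without replicates 2 and 5 of ATXN1[82Q] (0.41, adjusted p = 0.149) or in libraries of low Ttr alone (0.57, adjusted p = 0.151; 0.00411 to 0.151 over 26 alternatives). The rise was still called with the brainstem marker mean as a covariate, and the part of brainstem tissue was not tested beyond that.

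Kcnd3 (chromosome 3, 105452330 to 105674002, plus strand) encodes Kv4.3, which carries a rapidly inactivating current at voltages below the firing threshold. Wild-type libraries were at 154, 175.5, 146, 150.2 and 163 CPM, ATXN1[82Q] libraries at 155, 145, 159.6, 152 and 149 CPM, and substituted libraries at 160.2, 142, 153, 152.5 and 162 CPM. The groups overlapped throughout. Kcnd3 passed in none of the 3 comparisons, with log2 fold changes of -0.05 in ATXN1[82Q] (95% interval -0.15 to 0.05, edgeR adjusted p = 0.445), -0.03 with the substituted transgene (-0.13 to 0.07, 0.836) and -0.02 between the transgenes (-0.12 to 0.08, 0.824).

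Kcnip1 (chromosome 11, 33629339 to 33993152, minus strand) encodes KChIP1, a calcium-binding protein that attaches to Kv4 channels and raises their surface expression. Unlike the channel gene Kcnd3 it fell, from 76.2, 82.4, 88.6, 86 and 76.6 CPM in wild type to 42.9, 38.8, 39.9, 42.3 and 39.3 CPM in ATXN1[82Q]. The substituted libraries gave 59.9, 68.8, 77.3, 66.1 and 68.2 CPM. The ATXN1[82Q] libraries lay below all others, and replicate 3 of the substituted transgene reached into the wild-type range. The log2 fold change was -1.01 in ATXN1[82Q] against wild type (SE 0.0599, edgeR adjusted p = 2.72e-09), -0.27 with the substituted transgene (SE 0.0588, adjusted p = 0.0273) and -0.74 between the transgenes (SE 0.0599, adjusted p = 4.23e-07). Relative to the summed Kv4 alpha transcripts per kb of exon Kcnip1 was at 0.161 ± 0.00663 in wild type (SD, n = 5), 0.101 ± 0.00727 in ATXN1[82Q] and 0.141 ± 0.0123 in the substituted group.

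Counting Kcnip1, 5 of the 6 listed partners of Kv4 channels were lower in ATXN1[82Q] than in wild type and 1, Kcnip2, was higher, and with the substituted transgene 3 of 6 were lower. Of all tested genes 14.9% were called lower and 16.6% higher in ATXN1[82Q], and 1.2% lower with the substituted transgene. Dpp10, a membrane partner that speeds Kv4 gating, fell from 211 ± 11.1 CPM (SD, n = 5) to 111 ± 6.71 CPM in ATXN1[82Q] (log2 fold change -0.93, edgeR adjusted p = 1.36e-09) and to 176 ± 11.9 CPM with the substituted transgene (-0.27, adjusted p = 0.00818). Kcnip4, which encodes KChIP4, fell from 176 ± 12.1 CPM to 148 ± 4.17 CPM with the substituted transgene (-0.25, adjusted p = 0.00809; not called in libraries of low Ttr alone, -0.29, adjusted p = 0.0566), and to 113 ± 6.66 CPM in ATXN1[82Q]. Kcnip2 rose from 2.67 ± 0.564 to 4.17 ± 1.02 CPM with overlapping libraries (0.65, adjusted p = 0.0168), a call lost in libraries of low Ttr alone (0.26, adjusted p = 0.595), without replicates 2 and 5 of ATXN1[82Q] (0.55, adjusted p = 0.0966) and without its replicate 4 (0.55, adjusted p = 0.0518). Among the alpha subunits, Kcnd2, the Kv4.2 gene of granule cells, fell from 330 ± 24.3 to 246 ± 21.8 CPM (-0.42, adjusted p = 0.000219), while Kcnd1 did not pass (7.42 ± 0.61 against 7.05 ± 0.616 CPM, -0.07, adjusted p = 0.504).

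Kcng4 (chromosome 8, 119623854 to 119635680, minus strand) encodes Kv6.4, an electrically silent subunit that forms no channel alone and shifts the gating of Kv2 channels when it joins them. Its libraries were at 221.5, 222, 225, 243 and 215 CPM in wild type, at 126, 119, 117.5, 133 and 128 CPM in ATXN1[82Q], and at 139, 163, 196, 159 and 178 CPM in the substituted libraries. As with Kcnab1, the genotypes took 3 separate ranges, and within the substituted group replicate 3 was highest and replicate 1 lowest. In edgeR the log2 fold change was -0.85 in ATXN1[82Q] against wild type (SE 0.0673, adjusted p = 6.62e-08), -0.43 with the substituted transgene (SE 0.0668, adjusted p = 0.0025) and -0.42 between the transgenes (SE 0.0672, adjusted p = 0.000257).

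Kcnb2, a gene of the Kv2 channels that Kv6.4 joins, stood at 1.47 ± 0.314 CPM in wild type and 1.54 ± 0.648 CPM in ATXN1[82Q] (SD, n = 5; log2 fold change 0.07, edgeR adjusted p = 0.858). Of the 6 other silent subunit genes tested, 1 was lower and 3 were higher in ATXN1[82Q], among them Kcns3 (1.48 ± 0.376 to 3.16 ± 0.403 CPM, log2 fold change 1.09, adjusted p = 5.53e-05) and Kcns1 (1.63 ± 0.337 to 2.53 ± 0.343 CPM, 0.64, adjusted p = 0.00909). The call of Kcns1 was lost in libraries of low Ttr alone (0.62, adjusted p = 0.0901). Among all tested genes 14.9% were called lower and 16.6% higher in ATXN1[82Q] against wild type.

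The 46 further channel and partner genes of these subfamilies, without the Kv1 complex partners, moved in both directions in ATXN1[82Q]. Of the 38 tested, 12 fell and 11 rose against wild type, with a median log2 fold change of 0.02, where 14.9% of all genes were called lower and 16.6% higher. Kcnh3, a Kv12 alpha subunit gene of low level, had the largest fall among those named (4.87 ± 0.509 to 1.47 ± 0.202 CPM, SD, n = 5; log2 fold change -1.73, edgeR adjusted p = 1.48e-06). Kcnq5, a Kv7 gene, rose from 1.19 ± 0.136 to 2.64 ± 1.37 CPM (1.15, adjusted p = 0.00559), but was not called in libraries of low Ttr alone (0.30, adjusted p = 0.343) or without replicates 2 and 5 of ATXN1[82Q] (0.50, adjusted p = 0.102). With the substituted transgene 2 of the 38 fell, Dpp10 and Kcnip4, and none rose by edgeR (9 lower and 3 higher at an unadjusted p under 0.05; none higher by DESeq2). Of all tested genes 1.2% were called lower and 0.208% higher with the substituted transgene. Between the transgenes 9 of the 38 were lower and 5 higher in ATXN1[82Q], where 14.6% of all genes were called lower and 13.5% higher. Over all 46 tested channel genes, the 8 included, the number called higher in ATXN1[82Q] against wild type, 11, was 2 in libraries of low Ttr alone and 6 without ATXN1[82Q] replicates 2 and 5, while the number called lower, 17, was 17 and 18.

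**Figure D3:**
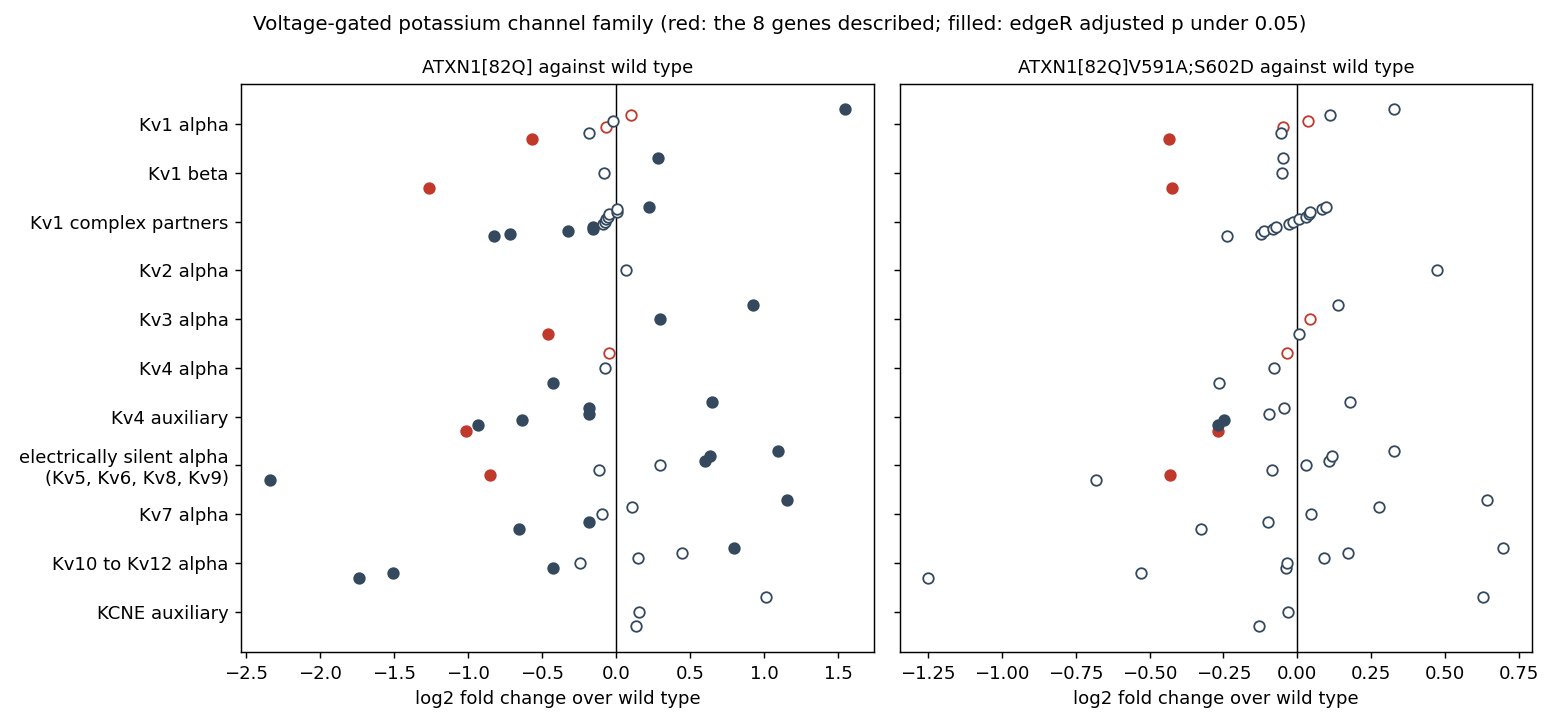
Log2 fold changes over wild type of 44 tested channel genes by subfamily and of 13 Kv1 complex partners, for ATXN1[82Q] (left) and the substituted transgene (right, on a narrower axis), with the 8 genes in red and filled circles for an edgeR adjusted p under 0.05. Leaving the partners aside, 16 of the channel genes plotted passed as lower and 10 as higher on the left, and 6 passed on the right, all lower.

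Markers of cell types also differed between the genotypes. Of all tested genes 14.9% were called lower and 16.6% higher in ATXN1[82Q] against wild type. With the substituted transgene these shares were 1.2% and 0.208%, and between the transgenes 14.6% were lower in ATXN1[82Q]. In ATXN1[82Q] 18 of 19 Purkinje cell markers fell (median log2 fold change -1.07), and their summed level ran from 3829 to 4616 CPM against 9959 to 11330 CPM in wild type. With the substituted transgene 11 of 19 fell (median -0.34; 7146 to 9683 CPM), and between the transgenes 18 of 19 were lower in ATXN1[82Q]. Granule cell markers fell in ATXN1[82Q] in 9 of 11 cases (5769 to 6191 CPM against 7237 to 8479 CPM in wild type); with the substituted transgene none of the 11 passed in edgeR, with 1 lower and 1 higher at an unadjusted p under 0.05 (7121 to 7976 CPM). Interneuron markers rose in 6 of 12 cases in ATXN1[82Q] (898 to 995 CPM against 779 to 941 CPM), with 1 of 12 lower for the substituted transgene (814 to 862 CPM). Oligodendrocyte and microglial markers rose in 7 of 8 and 8 of 8 cases in ATXN1[82Q], from 5017 to 7403 CPM in wild type to 7347 to 9255 CPM and from 96.5 to 109.7 CPM to 176 to 203 CPM. With the substituted transgene none of the 8 passed in either list, with 2 microglial markers higher at an unadjusted edgeR p under 0.05. Of 9 Bergmann glia and astrocyte markers, 2 fell and 4 rose in ATXN1[82Q]. None of these 9 passed with the substituted transgene (1 lower and 2 higher unadjusted). No choroid plexus marker passed in either comparison with wild type. The part of these cell types in the levels of the 8 genes was not tested. In whole tissue fewer cells of a type and less RNA per cell cannot be told apart.

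Within the substituted group Kcna6, Kcnab1 and Kcng4 had the same order of libraries as the summed Purkinje cell markers. Kcnip1 left that order in replicates 2 and 5 (84% and 83.1% of the wild-type mean, markers 73.6% and 79.1%). The summed Purkinje cell markers stood at 67.1%, 73.6%, 90.9%, 70.4% and 79.1% of the wild-type mean in replicates 1 to 5. Kcng4 stood at 61.9%, 72.2%, 87.2%, 70.7% and 78.9%, and Kcna6 at 63.9%, 72.6%, 88.8%, 71.1% and 74.1%. Kcnab1 (68.8% to 87.7%) and Kcnip1 (73.1% to 94.3%) covered similar ranges, and Kcnc1 stayed between 90.4% and 111%. Replicate 3 was the highest of the substituted group for the markers and for Kcna6, Kcnab1, Kcng4 and Kcnip1. Replicate 1 was the lowest of that group for the same 4 genes and the markers. The other genotypes did not share one order. In ATXN1[82Q] the markers, Kcna6 and Kcnip1 were highest in replicate 1, Kcnab1 in replicate 2 and Kcng4 in replicate 4. In wild type the markers were highest in replicate 2, Kcna6 and Kcng4 in replicate 4, and Kcnab1 and Kcnip1 in replicate 3. In ATXN1[82Q] the summed markers fell further than most of the genes, to 35.9% to 43.3% of the wild-type mean, against 38.1% to 47% for Kcnab1, 47.3% to 52.4% for Kcnip1, 52.2% to 58.9% for Kcng4, 64.2% to 72.6% for Kcna6 and 71.6% to 73.6% for Kcnc1. The most abundant markers weigh most in a sum. By log2 fold change the median marker, at -1.07, lay between Kcnab1 (-1.26) and Kcnip1 (-1.01).

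**Figure D4:**
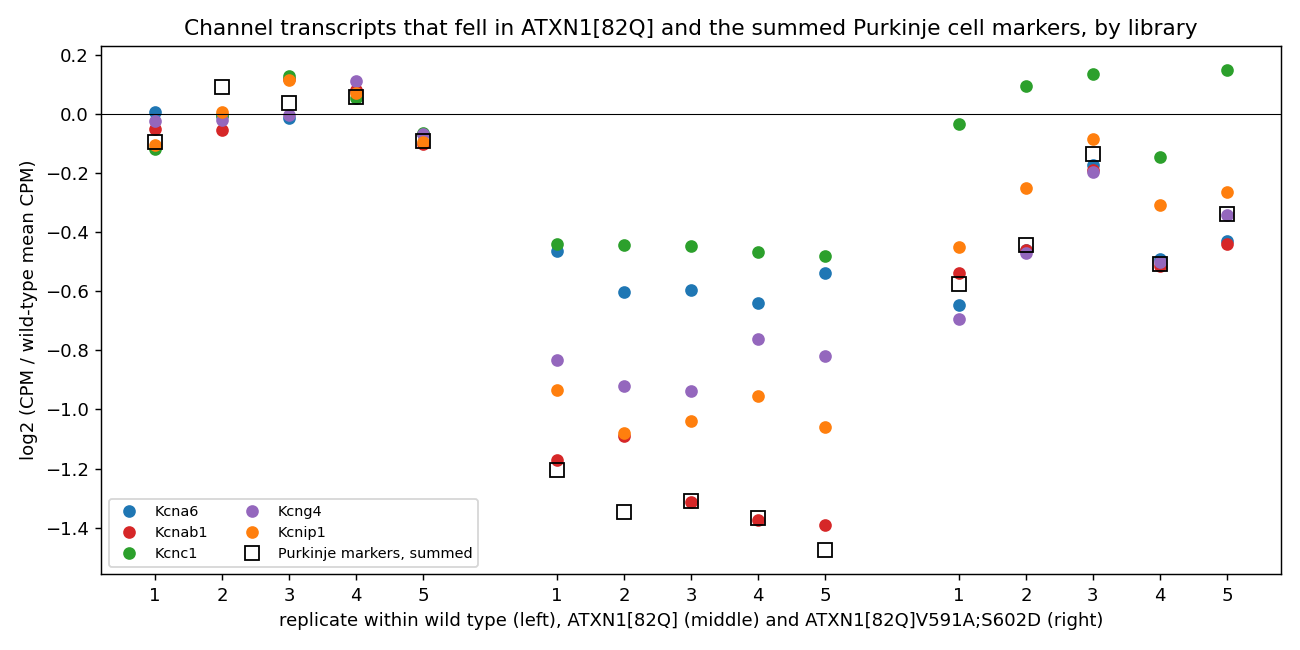
Log2 ratio of the CPM in each library to the wild-type mean for the 5 genes lower in ATXN1[82Q] (circles) and for the summed CPM of 19 Purkinje cell markers (open squares), by replicate and genotype. In the substituted group the circles of Kcna6, Kcnab1 and Kcng4 lie near the squares and those of Kcnc1 lie near 0, while in ATXN1[82Q] the squares lie below most circles.

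After each genotype's mean was removed, the remaining variation over the 15 libraries gave Pearson's r between log2 CPM and the mean log2 CPM of the Purkinje cell markers of 0.859 for Kcnip1, 0.813 for Kcna6, 0.75 for Kcng4, 0.656 for Kcnab1 and 0.641 for Kcnc1. It was -0.09 for Kcna1, -0.04 for Kcna2 and 0.12 for Kcnd3. Kcna2 went instead with the interneuron markers (0.782), and Kcna1 with Kcna2 (0.653) and the granule cell markers (0.573). With the granule cell markers r was 0.523 for Kcnc1, 0.305 for Kcnab1, 0.267 for Kcnip1, -0.131 for Kcna6 and -0.215 for Kcng4. Negative values were found with the Bergmann glia and astrocyte markers. They were -0.64 for Kcnc1, -0.53 for Kcng4, -0.42 for Kcnip1, -0.42 for Kcnab1 and -0.35 for Kcna6. For Kcnc1 this was as large in size as its r with the Purkinje cell markers. Among the falling genes Kcna6 and Kcng4 had an r of 0.845 with each other and Kcng4 and Kcnip1 one of 0.82. With the genotype means left in, Kcnc1 had an r of 0.9385 with the granule cell markers and 0.9046 with the Purkinje cell markers. Its r was also large with glial lists: -0.934 for microglia, -0.921 for Bergmann glia and astrocytes and -0.811 for oligodendrocytes. These are descriptions over 15 libraries that share their depth scaling and dissection with the markers.

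Other transcripts had patterns close to those of the channel genes. Among 12027 tested genes whose mean log2 CPM was 2 or more, the closest to Kcnip1 over the 15 libraries were the Purkinje cell markers Atp2a3 (Pearson's r = 0.996), Inpp5a (0.995) and Rgs8 (0.994), and within genotypes these had an r of 0.902, 0.902 and 0.877. Among the genes closest to Kcnab1 were Ttll5 (0.995) and the Purkinje cell marker Calb1 (0.991), and those closest to Kcng4 were Sbk1 (0.99), Nsg1 (0.99) and Dner (0.989). Kcna6 was closest to Rdh11 (0.964), Gchfr (0.961) and Slc20a1 (0.958). The nearest to Kcnc1 were Epb4.1l1 (0.975), Gm9899 (0.974) and the potassium leak channel gene Kcnk3 (0.968). For the genes that did not pass, the closest were Fam135a for Kcna1 (0.942), Slc24a2 for Kcna2 (0.881) and Sap30 for Kcnd3 (0.793). Libraries that share a genotype and a depth scaling raise such values for any pair of genes that differ between genotypes.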

How the data were processed

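RNA of whole cerebella was amplified from 10 ng of total RNA with poly(A) and random priming, and inserts of 400 bp were sequenced, per the labels' protocols. Per the submitters' processing notes the authors used STAR 2.5.3a, mm10, HTSeq and DESeq2. The deposited values are whole-number counts per gene, not normalised. How strand was handled, the counting mode and the annotation are not stated in the labels or notes used here. Lines that name no gene were left out of all totals; of the reads, 16.8% to 18.2% lay outside genes, 1.18% to 1.25% were ambiguous and 12.8% to 14.6% aligned more than once.

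Genotypes came from the labels. edgeR 4.0.16 in R 4.3.3 fitted all 15 libraries with a mean per genotype, TMM factors (0.968 to 1.04), filterByExpr with a minimum count of 10 and the quasi-likelihood F-test, with Benjamini-Hochberg adjustment over 15843 of 24421 genes; all 8 genes passed the filter. The common biological coefficient of variation was 0.102. Fold changes are fitted ones, CPM are TMM-scaled, and log2 CPM used a prior count of 2. Reads carry no molecular identifiers, so precision rests on the spread between libraries. A chi-square check of the 30 pairs of same-genotype libraries found no duplicate (5.7 to 40.6 per degree of freedom).

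Positions, exon unions, coding lengths and coding sequence came from GENCODE M21 (GRCm38), and promoter windows from RefSeq. The fit was tested on simulated data. Alternatives were DESeq2 1.42.0, RLE size factors, library totals, no filter, only the genotypes compared, a replicate block, each library left out, libraries with Ttr under 100 CPM, ATXN1[82Q] replicates 2 and 5 left out, and Ttr, brainstem marker mean or Xist as a covariate. Figures were drawn with matplotlib 3.10.9.

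The 8 genes, the gene lists and the alternatives were chosen with earlier results of these data known. Named by rule were the 8 genes, in each comparison up to 5 called genes of the family per direction with the largest fold change and mean log2 CPM not below 0, and the 3 genes of closest pattern. Kcna3, Kcna4, Kcna5, Kcnab2, Kcnb2, Kcnc4, Kcnd1, Kcnd2, and comparisons of Kcnab3, Kcnip4 and Adam23 outside the rule were picked once their values were known. Some genes that belong to these lists, and some sequences, are not reported here.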

Additional observations from a re-analysis of the deposited data

Results flagged for a closer look

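Kcnab1 in the substituted transgene had a library that stood apart. Replicate 3 was at 155 CPM and the other 4 libraries at 122 to 130.4 CPM. The gap between replicate 3 and its nearest neighbour was 0.741 of the whole range of the group, above Dixon's critical value of 0.71 for 5 samples. It was the only one of the 24 groups of libraries (8 genes in 3 genotypes) to pass, and chance passes about 1 in 20. In the same library the summed Purkinje cell markers were at 90.9% of the wild-type mean, the highest of the group. Without it the log2 fold change of Kcnab1 against wild type was -0.49 (edgeR adjusted p = 0.000118).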

How the results depend on the processing

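Direction was followed only for the 8 genes and the family genes named, and none that was called turned under any of the 26 alternatives. Of the 24 tests of the 8 genes only Kcnip1 with the substituted transgene lost a call. Only Kcna2 and Kcna6 gained one, as given above. Scaling by library totals alone called 1 of the 8 genes higher in ATXN1[82Q] against wild type (Kcna2) where TMM called 0. Over all genes it called 1338 lower and 4339 higher (TMM 2358 and 2635), so that 76.4% in place of 52.8% were higher, with the median of all genes at 0.0802. Against the substituted transgene it called 1351 lower and 3453 higher (TMM 2320 and 2134; 71.9% in place of 47.9% higher), and 8 in place of 5 channel genes higher. With the substituted transgene against wild type it called 51 higher in place of 33, and DESeq2 called 319 lower and 111 higher in place of 190 and 33 (25.8% in place of 14.8% higher). The cause was not tested.

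When the fit held only the 7 libraries with Ttr under 100 CPM, it called 1563 genes higher in ATXN1[82Q] against wild type, 11 higher with the substituted transgene, and 904 lower and 608 higher between the transgenes. Channel genes called higher then numbered 2 in place of 11 against wild type and 1 in place of 5 between the transgenes. Without ATXN1[82Q] replicates 2 and 5 these were 6 and 3, and 1380 genes were higher between the transgenes. Fewer libraries enter both settings. With each library left out in turn, genes called with the substituted transgene ranged from 120 to 258 lower (120 and 125 without its replicates 2 and 4) and from 15 to 49 higher, where wild-type replicates 2 and 4 and its own replicates 1, 2 and 4 each gave 17 or fewer, and channel genes called higher there from 0 to 1, the 1 without wild-type replicate 3. Divided by coding length, the Kv1 alpha shares in wild type, ATXN1[82Q] and the substituted transgene were 43.1%, 41.8% and 42.8% for Kcna1, 47.3%, 51.6% and 49.8% for Kcna2, and 9.69%, 6.63% and 7.4% for Kcna6, by construction.

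Libraries that share a replicate number did not deviate together: for 4 of the 15 such pairs the correlation was above 0.1 (median -0.109), so the numbers give no pairing. With the replicate block 5, 4 and 4 of the 8 genes were called lower in the 3 comparisons, as without it. Depth did not limit the 8 genes, the lowest having 1585 counts in a library.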
